A study of Mus musculus with 18 samples.

Results

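Cell adhesion genes of the pancreatic islet were followed in mice with a deletion in Cdh13, which encodes the atypical cadherin T-cadherin. The 9 genes were chosen by symbol: the classical cadherins Cdh1 and Cdh2, the catenins Ctnnb1, Ctnna1, Ctnnd1 and Jup, and the adhesion genes Ncam1, Epcam and Tjp1. All 9 symbols were found among the 24346 listed genes, and all 9 were among the 12234 genes tested, that is, genes that reached 1 FPKM in 3 or more of the 18 libraries. The question was whether any of them was higher where T-cadherin was lost.

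Classical cadherins hold neighbouring cells together by binding the same kind of cadherin on the next cell. Their cytoplasmic tails bind p120-catenin (Ctnnd1) near the membrane and beta-catenin (Ctnnb1) or plakoglobin (Jup) further along, and alpha-catenin (Ctnna1) links that complex to actin. T-cadherin has no such tail: it is held in the membrane by a lipid anchor, binds no catenin and is a receptor for the fat cell hormone adiponectin. In islets, E-cadherin (Cdh1) and N-cadherin (Cdh2) join endocrine cells to each other, and NCAM (Ncam1) takes part in the sorting of alpha and beta cells into mantle and core.

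RNA was sequenced from islets isolated from C57BL/6 mice in which exon 2 of Cdh13 was deleted (called deleted islets here) and from mice in which that exon was floxed, that is, flanked by loxP sites (floxed islets). The diet began at 8 weeks of age, when the first mice were sampled; the others were sampled at 14 weeks, after 6 weeks of a high-fat diet or of normal chow. There were 3 libraries in each of the 6 groups. The series design calls the floxed mice wild type and the deleted mice knockout; the sources used here do not give the Cre driver, the sex or the make-up of the diet. The labels do not say that each library came from a separate mouse, so each p-value measures only the spread between these libraries, which may be technical.

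The values were FPKM, fragments scaled by transcript length and by the size of the library, so levels can be compared between genes. Read totals are unknown. Summed FPKM was 903346 to 1394010 per library, and 11474 to 11787 genes reached 1 FPKM. The insulin gene Ins2 held 40.2% to 52.7% of the summed FPKM. Differences are given on the log2(FPKM + 1) scale, tested gene by gene with limma over all 12234 genes. A gene was called at a Benjamini-Hochberg adjusted p below 0.05. With 3 libraries against 3, an exact permutation test of a single gene cannot go below p = 0.1. In RNA from whole islets, fewer cells of a type and less RNA per cell cannot be told apart.

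The targeted gene was checked first. Cdh13 measured 0.765, 0.778 and 0.353 FPKM in deleted islets at 8 weeks, against 1.09, 1.08 and 1.84 FPKM in floxed islets. At 14 weeks on chow it measured 0.691, 0.419 and 0.544 FPKM in deleted islets, against 1.63, 2.06 and 1.33 FPKM in floxed islets. On the high-fat diet it measured 0.247, 0.809 and 0.311 FPKM in deleted islets, against 1.38, 1.17 and 1.43 FPKM in floxed islets. The genotypes did not overlap in any of the 3 conditions, so the libraries followed their labels. By limma Cdh13 was not called at 8 weeks (-0.51, adjusted p = 0.179) or at 14 weeks on chow (-0.78, adjusted p = 0.0674), and it was called on the high-fat diet (-0.69, adjusted p = 0.0107). That call ended without deleted replicate 1 of the diet (-0.59, adjusted p = 0.0615). Over the 3 conditions the log2 difference was -0.66 (SE 0.0968, limma adjusted p = 5.91e-04), and 3.61% of all tested genes were called in that comparison. With a pseudocount of 0.1 in place of 1 the difference over the 3 conditions was -1.31. Cdh13 passed the filter of 1 FPKM only through the floxed libraries, since every deleted library was below 1 FPKM. Its p-values therefore serve as a check of the labels only. It dropped out with a mean of at least 5 FPKM, and it was called over the 3 conditions in the 26 alternative settings that kept it. These values count fragments over the whole gene and not over the deleted exon alone.

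Promoter sequences are shown for 3 members that behaved differently in the comparisons given further on. Epcam was higher in deleted than in floxed islets on the high-fat diet, Ctnnd1 was lower on the high-fat diet than on chow in floxed islets, and Ctnnb1 was not called in either comparison. Each is the 250 bases before a RefSeq transcription start (GRCm38.p6), written 5′ to 3′ on the strand of the gene. Epcam is at chr17:87635729-87635978 on the plus strand, the first listed start of Ctnnd1 at chr2:84658978-84659227 on the minus strand, and the first listed start of Ctnnb1 at chr9:120933150-120933399 on the plus strand. Capitals mark the E-box CAGGTG, the core bound by the cadherin gene repressors of the Snail and Zeb families, and the CCAAT box, each on either strand.
Epcam: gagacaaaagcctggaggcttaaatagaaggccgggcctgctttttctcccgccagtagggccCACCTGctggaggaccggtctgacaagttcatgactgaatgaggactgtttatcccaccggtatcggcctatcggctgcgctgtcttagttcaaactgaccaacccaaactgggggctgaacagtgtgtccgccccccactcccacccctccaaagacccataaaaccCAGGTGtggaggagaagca
Ctnnd1: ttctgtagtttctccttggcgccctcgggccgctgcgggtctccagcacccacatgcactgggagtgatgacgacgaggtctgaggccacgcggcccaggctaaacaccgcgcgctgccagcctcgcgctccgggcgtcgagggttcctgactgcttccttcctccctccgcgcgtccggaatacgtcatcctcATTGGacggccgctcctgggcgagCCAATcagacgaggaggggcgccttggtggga
Ctnnb1: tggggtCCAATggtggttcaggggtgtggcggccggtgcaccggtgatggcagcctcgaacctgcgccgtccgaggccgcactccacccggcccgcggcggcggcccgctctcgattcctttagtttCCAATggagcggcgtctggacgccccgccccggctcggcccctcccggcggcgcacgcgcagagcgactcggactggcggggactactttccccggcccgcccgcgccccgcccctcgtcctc

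The Epcam window held 2 E-boxes, starting 187 and 19 bases before the transcription start, and no CCAAT box. The Ctnnd1 and Ctnnb1 windows shown each held 2 CCAAT boxes and no E-box. RefSeq lists a second start for both genes. The second Ctnnd1 window, which is next to the GENCODE end of the gene, held 2 CCAAT boxes, the second Ctnnb1 window held 0, and neither held an E-box. Of 32851 promoter windows of the same length, 17.2% held the E-box and 33.8% the CCAAT box. The TCF/LEF motif CTTTGA, through which nuclear beta-catenin acts, was in none of the 3 windows and in 13.8% of all windows. A match describes the letters only and does not show that a factor binds there. RefSeq promoters were matched for 5 of the 9 genes, and the other 2 of those 5 were Jup and Tjp1.

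All 9 genes were expressed in every group, and their levels differed widely. Epcam, an epithelial adhesion molecule that associates with claudins, was highest with a mean of 184.7 FPKM over the 18 libraries, at percentile 96.4 of the tested genes. Ctnnb1 followed at 134.5 FPKM and Cdh1 at 112.7 FPKM. Ctnna1 averaged 41.4 FPKM, Ncam1 28.2 FPKM, Cdh2 27.7 FPKM, Jup 20.1 FPKM and Ctnnd1 14.9 FPKM. Tjp1, which encodes the tight junction scaffold ZO-1, was lowest at 11.8 FPKM, still at percentile 54.6. Cdh13 averaged 0.996 FPKM, at percentile 4.38. Between the lowest and the highest library the 9 genes varied from 1.26 times for Ctnnb1 to 2.22 times for Jup.

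**Figure D1:**
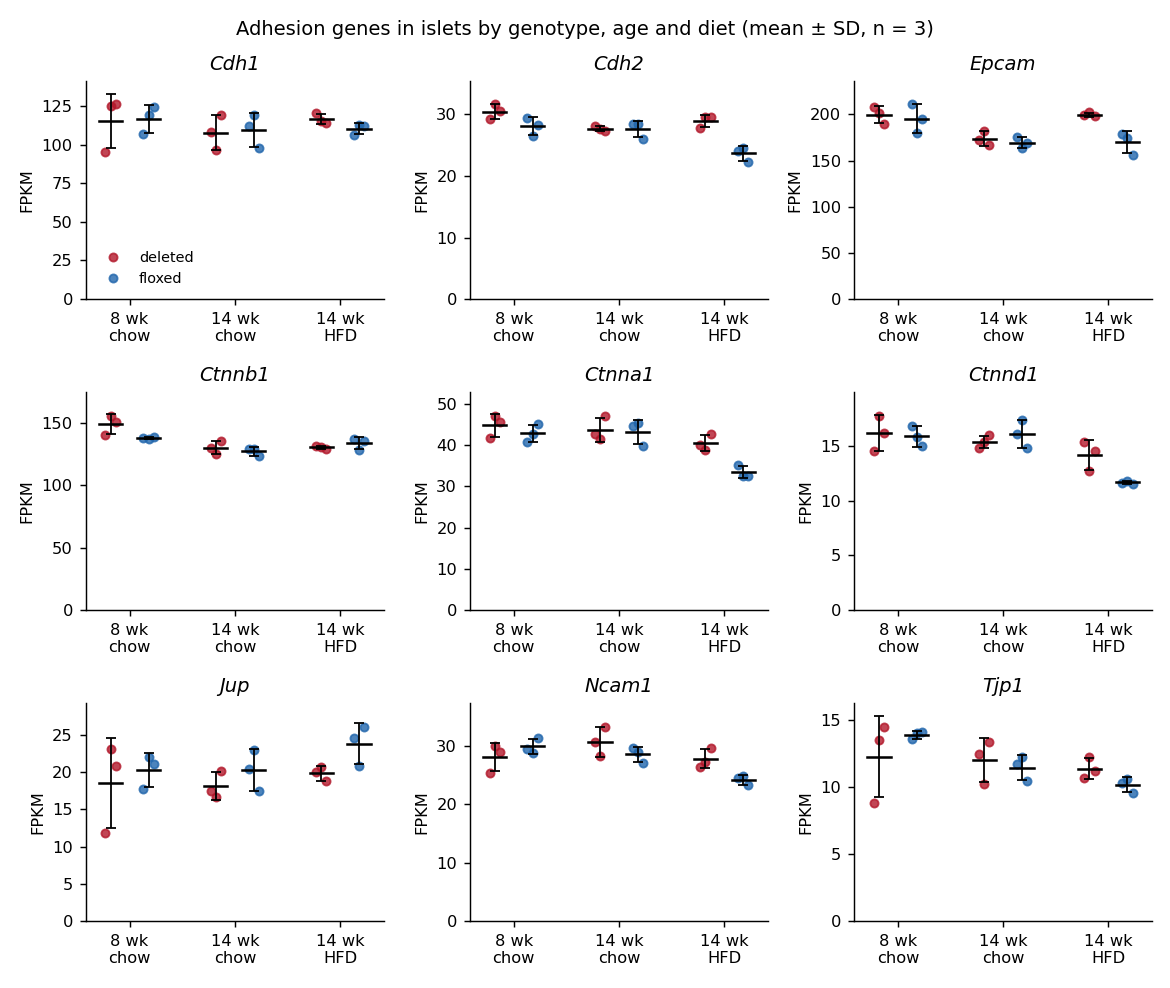
FPKM of the 9 adhesion genes in each of the 18 libraries (points; y axes start at 0), in deleted (red, left) and floxed (blue, right) islets of the 3 conditions (wk, weeks of age; HFD, high-fat diet). Horizontal bars and whiskers are the mean ± SD of 3 libraries. The floxed high-fat diet group has the lowest mean of the 6 for Cdh2, Ctnna1, Ctnnd1, Ncam1 and Tjp1, and for Tjp1 its libraries overlap those of some other groups.

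The levels by group fell into a few patterns. Floxed islets on the high-fat diet had the lowest mean of the 6 groups for Cdh2, Ctnna1, Ctnnd1, Ncam1 and Tjp1, and in each case their 3 libraries lay below the 3 of the next group in the order. Cdh2, for example, averaged 23.6 ± 1.16 FPKM there, and the other 5 groups averaged 27.6 to 30.4 FPKM with each neighbour in the order overlapping the next. For Tjp1 the gap was narrow and did not hold against every group. Its floxed libraries on the diet had 9.56 to 10.6 FPKM. The lowest Tjp1 values on chow were 8.81 FPKM in deleted islets at 8 weeks, and 10.2 and 10.4 FPKM in deleted and floxed islets at 14 weeks. The share of all tested genes with such a gap was not counted. Epcam had its 3 highest means in deleted islets on the high-fat diet (199.9 ± 2.15 FPKM), deleted islets at 8 weeks (199.8 ± 9.04 FPKM) and floxed islets at 8 weeks (195.2 ± 15.7 FPKM). The 3 other Epcam groups averaged 169.6 to 173.7 FPKM, and neighbours in the order overlapped throughout. For Cdh1, group means ran from 107.8 to 116.7 FPKM, and each group overlapped the next. For Ctnnb1, deleted islets at 8 weeks were highest at 148.8 ± 7.95 FPKM, with no overlap with floxed islets at 8 weeks at 137.7 ± 0.704 FPKM, the next in order. Jup was highest in floxed islets on the high-fat diet at 23.8 ± 2.71 FPKM, and every group overlapped the next (all mean ± SD, n = 3).

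Replicate 1 of the deleted 8-week islets stood apart, with 11.8 FPKM of Jup, where the other 17 libraries had at least 16.6 FPKM, and 8.81 FPKM of Tjp1, the lowest of the 18. It also had the lowest Cdh1, at 94.9 FPKM. Its summed acinar markers were 1550 FPKM, against 46.9 and 267.1 FPKM in the other libraries of its group.

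On chow, deletion of Cdh13 was not accompanied by a called difference in any of the 9 genes. At 8 weeks 0 of 9 were called, where 0.548% of all tested genes were. At an unadjusted limma p below 0.05 there were 0 of 9 members and 1535 of all 12234 tested genes. At 14 weeks on chow 0 of 9 were called, where 0.114% of all tested genes were. At an unadjusted limma p below 0.05 there were 0 of 9 members and 976 of all 12234 tested genes. The member differences ran from -0.19 to 0.11 at 8 weeks and from -0.15 to 0.10 at 14 weeks, and the smallest limma adjusted p was 0.415 and 0.894.

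The intervals show what the chow comparisons could have missed. For Cdh1, the most abundant classical cadherin, the 95% confidence interval of the log2 difference was -0.23 to 0.18 at both ages. Cdh1 measured 94.9, 125 and 126 FPKM in deleted islets at 8 weeks, against 107, 119 and 124 FPKM in floxed islets, so the genotypes overlapped. For Cdh2 the interval was -0.02 to 0.25 at 8 weeks and -0.13 to 0.14 at 14 weeks. For Ctnnb1 the difference at 8 weeks was 0.11 with an interval of -0.00 to 0.22. It measured 140, 156 and 151 FPKM in deleted islets, all above the 138, 137 and 138 FPKM in floxed islets. Jup had the widest intervals, -0.54 to 0.20 at 8 weeks and -0.52 to 0.21 at 14 weeks. Without replicate 1 of the deleted 8-week islets, the Jup difference at 8 weeks was 0.11 in place of -0.17 and the Tjp1 difference 0.01 in place of -0.19; neither passed the test.

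On the high-fat diet, 3 of the 9 genes were called, all 3 higher in deleted islets: Cdh2, Ctnna1 and Epcam. Of all tested genes, 10.7% were called in this comparison and 4.70% were called higher. Their means in deleted islets were 122.3%, 121.2% and 117.7% of the floxed means. Against a median of 0.01 over all tested genes, the median difference of the 9 members was 0.19.

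Cdh2, the N-cadherin gene, measured 27.8, 29.5 and 29.5 FPKM in deleted islets on the high-fat diet, against 24.1, 24.5 and 22.3 FPKM in floxed islets. The 3 deleted libraries were all above the 3 floxed libraries, as the plot of levels shows. The log2 difference was 0.28 (SE 0.0639, 95% confidence interval 0.15 to 0.41, limma adjusted p = 0.00715). It was called under all 27 alternative settings, with values of 0.24 to 0.31.

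Ctnna1, the alpha-catenin gene, measured 39.9, 38.8 and 42.6 FPKM in deleted islets, against 35.0, 32.6 and 32.6 FPKM in floxed islets. Again no deleted library reached down to the floxed ones. Its log2 difference was 0.27 (SE 0.0703, limma adjusted p = 0.0176). The call ended without deleted replicate 3 (0.23, adjusted p = 0.0768), floxed replicate 2 (0.25, adjusted p = 0.0620) or floxed replicate 3 (0.25, adjusted p = 0.0661) of the high-fat diet.

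Epcam measured 199, 202 and 198 FPKM in deleted islets, against 179, 174 and 156 FPKM in floxed islets. The deleted libraries lay close together and above all floxed libraries. Its log2 difference was 0.24 (SE 0.0663, limma adjusted p = 0.0258). The call ended without deleted replicate 1, 2 or 3 or floxed replicate 3 of the high-fat diet, with the lowest value, 0.18, without floxed replicate 3 (adjusted p = 0.147).

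The other catenins did not pass. Ctnnd1, which encodes p120-catenin, a stabiliser of cadherins at the cell surface, measured 15.4, 12.7 and 14.5 FPKM in deleted islets, against 11.7, 11.8 and 11.5 FPKM in floxed islets. Its groups did not overlap, and its log2 difference of 0.26 had a limma adjusted p of 0.0614. It passed without deleted replicate 2 of the high-fat diet (0.33, adjusted p = 0.0333) and without deleted replicate 1 of the 8-week islets (0.26, adjusted p = 0.0429). Ctnnb1 measured 131, 130 and 129 FPKM in deleted islets, against 137, 128 and 136 FPKM in floxed islets. Its groups overlapped, and the 95% confidence interval of its log2 difference was -0.15 to 0.08. Jup, the plakoglobin gene, measured 20.0, 20.7 and 18.7 FPKM in deleted islets, against 24.5, 20.8 and 26.1 FPKM in floxed islets. It was the single member below floxed islets in all 3 deleted libraries, at a log2 difference of -0.25 (limma adjusted p = 0.402).

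Ncam1 measured 26.5, 27.3 and 29.6 FPKM in deleted islets on the high-fat diet, against 24.5, 24.9 and 23.3 FPKM in floxed islets (log2 difference 0.19, limma adjusted p = 0.115). Cdh1 measured 120, 115 and 114 FPKM in deleted islets, against 106, 112 and 112 FPKM in floxed islets (0.08, limma adjusted p = 0.674). Tjp1 measured 10.7, 12.2 and 11.2 FPKM in deleted islets, against 10.3, 10.6 and 9.56 FPKM in floxed islets (0.15, limma adjusted p = 0.522). These 3 genes did not overlap between the genotypes, but their differences missed the threshold. In all, 7 of the 9 genes were higher in every deleted than in every floxed library on this diet, and 16.4% of all tested genes were.

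**Figure D2:**
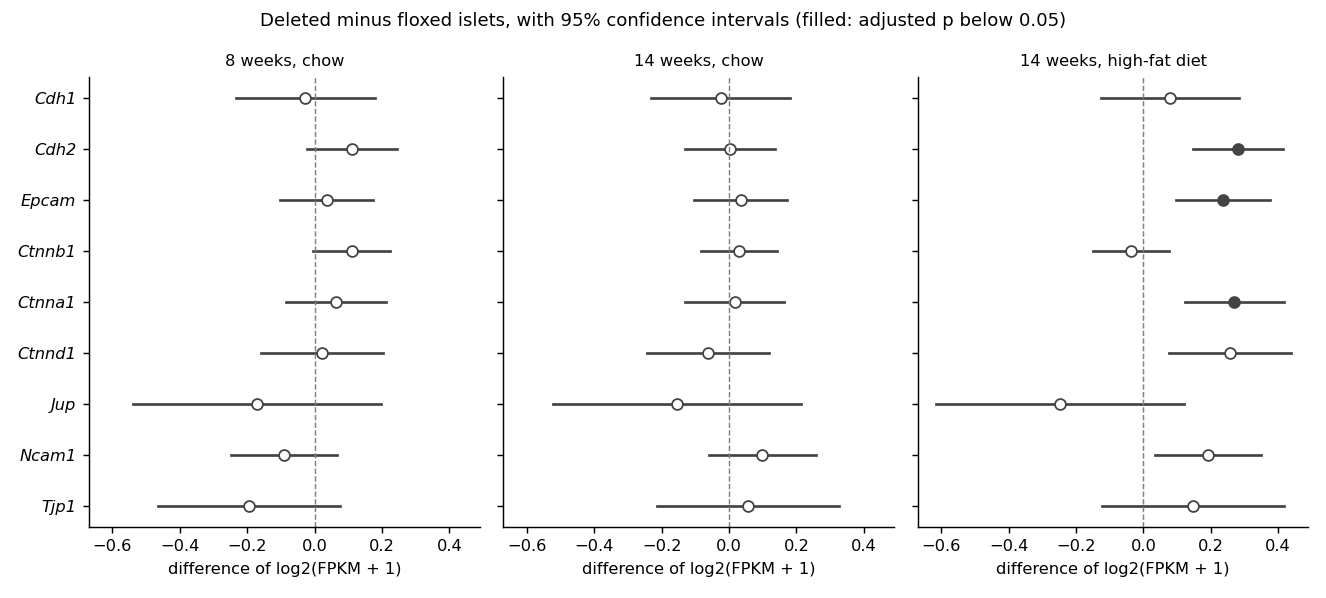
Difference of log2(FPKM + 1), deleted minus floxed islets, for the 9 adhesion genes at 8 weeks on chow, 14 weeks on chow and 14 weeks on the high-fat diet. Points are limma estimates from 3 libraries a group and lines their 95% confidence intervals; the filled points, Cdh2 (0.28), Epcam (0.24) and Ctnna1 (0.27) on the high-fat diet, passed an adjusted p of 0.05.

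Averaged over the 3 conditions, 0 of 9 genes were called between genotypes, where 3.61% of all tested genes were called. At an unadjusted limma p below 0.05 there were 3 of 9 members and 2159 of all 12234 tested genes. Cdh2 was closest, at 0.13 (SE 0.0369, limma adjusted p = 0.0530), and it was called under 6 of the 27 alternative settings. Ctnna1 was at 0.12 (limma adjusted p = 0.122), Epcam at 0.10 (adjusted p = 0.152) and Cdh1 at 0.01 with an interval of -0.11 to 0.13 (adjusted p = 0.962).

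The genotype difference on the high-fat diet was also set against that on chow at 14 weeks, as an interaction. For this test 0 of 9 genes were called, where 3.53% of all tested genes were. At an unadjusted limma p below 0.05 there were 4 of 9 members and 2089 of all 12234 tested genes. Cdh2 was at 0.28 (limma adjusted p = 0.0999), Ctnnd1 at 0.32 (adjusted p = 0.173), Ctnna1 at 0.25 (adjusted p = 0.187) and Epcam at 0.20 (adjusted p = 0.275). A genotype difference present on the diet and not on chow was therefore not shown for any single member. For the interaction of genotype with age on chow, 0 of 9 were called, where 0.196% of all tested genes were. At an unadjusted limma p below 0.05 there were 0 of 9 members and 1090 of all 12234 tested genes.

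On the linear scale, the transcripts that differed were far more abundant than the one deleted. On the high-fat diet, Cdh13 was lower in deleted islets by a difference of -0.871 ± 0.195 FPKM (SE), and Cdh2 was higher by 5.28 ± 0.880 FPKM. The difference was 7.08 ± 1.39 FPKM for Ctnna1 and 30.1 ± 6.91 FPKM for Epcam.

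The 2 member cadherins made up most of the classical cadherin transcripts. Of 18 classical cadherin genes listed, 8 were tested, and Cdh1 and Cdh2 together held 87.2% ± 1.21 of the summed FPKM of the 18 (mean ± SD over 18 libraries). Next were Cdh8 at a mean of 7.89 FPKM, Cdh4 at 5.02 FPKM and Cdh22 at 3.27 FPKM. The sum over the 18 genes was 168.1 ± 2.31 FPKM in deleted islets and 152.8 ± 3.73 FPKM in floxed islets on the high-fat diet (mean ± SD, n = 3 each), and it is given as a description with no test.

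Cdh8, which encodes a type II classical cadherin best known from neurons, showed a larger difference than any of the 9 members. It measured 10.5, 9.57 and 11.5 FPKM in deleted islets on the high-fat diet, against 5.67, 5.80 and 5.98 FPKM in floxed islets. The groups were well apart, and the log2 difference was 0.75 (SE 0.113, limma adjusted p = 2.24e-04). The interaction with diet was called too, at 0.71 (limma adjusted p = 0.0150). On chow at 14 weeks the genotypes overlapped, with 8.88, 6.73 and 8.48 FPKM in deleted islets, against 9.19, 7.42 and 6.74 FPKM in floxed islets. Both calls held under all 27 alternative settings. Cdh5, the cadherin of endothelial cells, moved the other way on the diet: it measured 1.21, 1.13 and 1.07 FPKM in deleted islets, against 2.23, 2.14 and 2.08 FPKM in floxed islets (-0.56, limma adjusted p = 0.00236).

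**Figure D3:**
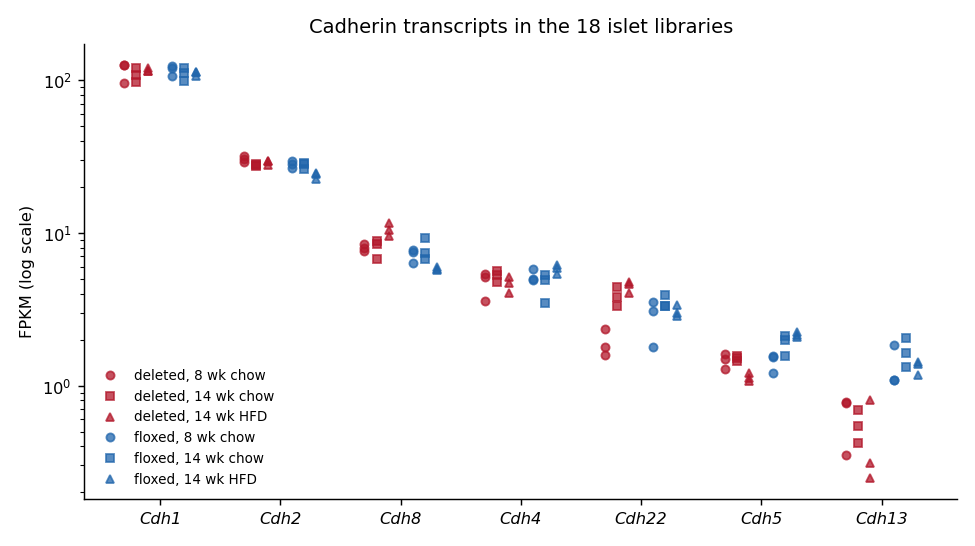
FPKM on a log axis of 6 classical cadherin genes and of Cdh13 in the 18 libraries, deleted islets in red on the left and floxed islets in blue on the right of each gene; circles are 8 weeks on chow, squares 14 weeks on chow and triangles the high-fat diet. Cdh1 (mean 112.7 FPKM) lay above Cdh2 (27.7 FPKM) in every library, and the triangles of Cdh8 lay higher in deleted (9.57 to 11.5 FPKM) than in floxed islets (5.67 to 5.98 FPKM).

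The diet comparison within floxed islets showed 4 of the 9 genes lower on the high-fat diet than on chow and 0 higher: Ctnna1, Ctnnd1, Cdh2 and Ncam1. Of all tested genes, 28.5% were called in this comparison and 13.5% were called lower. The floxed high-fat diet libraries also serve as the controls of the genotype comparison on that diet, so these sets of differences are not independent of each other.

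Ctnna1 measured 35.0, 32.6 and 32.6 FPKM on the high-fat diet in floxed islets, against 44.4, 45.2 and 39.8 FPKM on chow. The diet libraries were all below the chow libraries, by -0.36 on the log2 scale (SE 0.0703, limma adjusted p = 8.72e-04). Ctnnd1 measured 11.7, 11.8 and 11.5 FPKM on the high-fat diet, against 16.1, 17.4 and 14.8 FPKM on chow (-0.43, limma adjusted p = 0.00105). It had the largest difference among the 9 genes in this comparison. Both calls held under all 27 alternative settings.

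Cdh2 measured 24.1, 24.5 and 22.3 FPKM on the high-fat diet in floxed islets, against 28.4, 28.4 and 26.0 FPKM on chow (-0.22, limma adjusted p = 0.0163). Its call ended without chow replicate 1 (adjusted p = 0.0625) or 2 (adjusted p = 0.0641) or high-fat diet replicate 3 (adjusted p = 0.0759) of the floxed islets. Ncam1 measured 24.5, 24.9 and 23.3 FPKM on the high-fat diet, against 29.6, 29.0 and 27.1 FPKM on chow (-0.23, limma adjusted p = 0.0287). Its call ended without chow replicate 1 (adjusted p = 0.0959) or 2 (adjusted p = 0.0818) or high-fat diet replicate 1 (adjusted p = 0.0579) or 3 (adjusted p = 0.0954). These 4 genes were the members lower in every diet library than in every chow library, and 21.5% of all tested genes were.

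The other 5 members did not pass in floxed islets. Cdh1 differed by 0.01 (95% confidence interval -0.19 to 0.22), Epcam by 0.00 (-0.14 to 0.14), Ctnnb1 by 0.07 (-0.04 to 0.18), Tjp1 by -0.15 (-0.42 to 0.12) and Jup by 0.22 (-0.14 to 0.59).

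Within deleted islets, 1 of the 9 genes was called, Epcam, which was higher on the high-fat diet. Of all tested genes, 15.0% were called in this comparison and 9.05% were called higher. Epcam measured 199, 202 and 198 FPKM on the high-fat diet in deleted islets, against 172, 182 and 167 FPKM on chow. The groups did not overlap, and the log2 difference was 0.20 (SE 0.0663, limma adjusted p = 0.0450). The call was near the threshold: it held under 15 of the 27 alternative settings, and with quantile normalization the difference was 0.10 (adjusted p = 0.319). It ended without chow replicate 1 (adjusted p = 0.114) or 3 (adjusted p = 0.157), without high-fat diet replicate 1 (adjusted p = 0.0901), 2 (adjusted p = 0.124) or 3 (adjusted p = 0.0910), and, through the shared estimate of the spread, without replicate 2 of the deleted or 3 of the floxed 8-week islets or floxed replicate 2 on either 14-week diet. The 4 genes called in floxed islets were here at -0.11 for Ctnna1 (limma adjusted p = 0.347), -0.11 for Ctnnd1 (adjusted p = 0.434), 0.06 for Cdh2 (adjusted p = 0.563) and -0.14 for Ncam1 (adjusted p = 0.243).

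**Figure D4:**
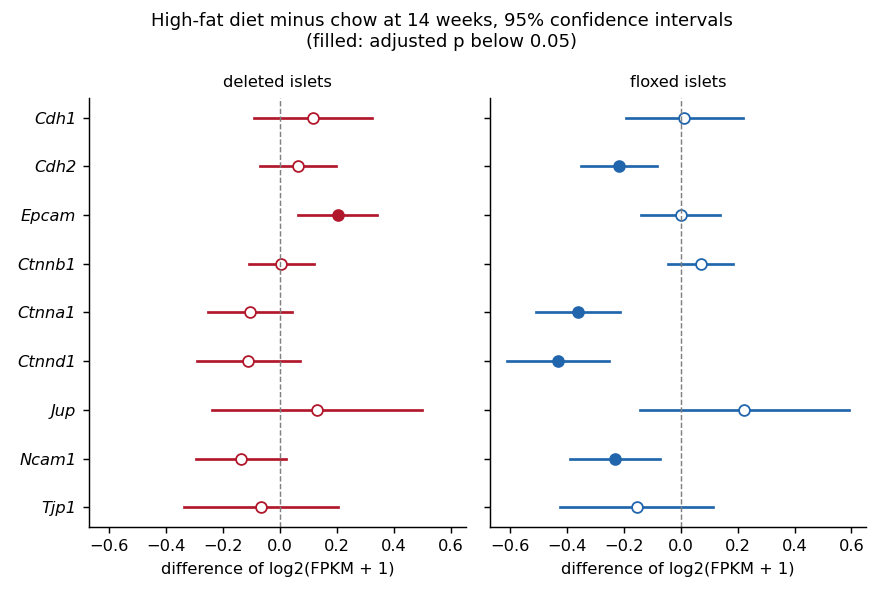
Difference of log2(FPKM + 1), high-fat diet minus chow at 14 weeks, for the 9 adhesion genes in deleted (red, left) and floxed (blue, right) islets. Points are limma estimates from 3 libraries a group and lines their 95% confidence intervals; filled points passed an adjusted p of 0.05 and are Epcam (0.20) in deleted islets and Cdh2 (-0.22), Ctnna1 (-0.36), Ctnnd1 (-0.43) and Ncam1 (-0.23) in floxed islets.

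Age on chow gave no called member. From 14 against 8 weeks, 0 of 9 were called in deleted islets, where 2.91% of all tested genes were. At an unadjusted limma p below 0.05 there were 3 of 9 members and 1864 of all 12234 tested genes. In floxed islets 0 of 9 were called, with 2 at an unadjusted p below 0.05 and 4.15% of all tested genes called. Ctnnb1 measured 129, 125 and 135 FPKM at 14 weeks in deleted islets, against 140, 156 and 151 FPKM at 8 weeks (-0.20, limma adjusted p = 0.0588). Epcam was at -0.20 in both genotypes (limma adjusted p = 0.125 in deleted and 0.102 in floxed islets).

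Ratios between members are given as descriptions with no test. Alpha-catenin mRNA was 31.1% ± 1.66 of beta-catenin mRNA in deleted islets on the high-fat diet and 25.0% ± 0.845 in floxed islets on that diet (mean ± SD, n = 3 each). Group means of that ratio were 30.1% to 33.9% in the other 4 groups, so the floxed high-fat diet libraries, at 24.0% to 25.5%, were the lowest. Cdh1 was 4.03 ± 0.255 times Cdh2 in deleted islets on the diet and 4.67 ± 0.324 times in floxed islets. Plakoglobin mRNA was 15.2% ± 0.683 of beta-catenin mRNA in deleted islets on the diet and 17.8% ± 1.49 in floxed islets.

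Positions of 7 of the 9 genes follow GENCODE M21 on GRCm38, the build of the files. Cdh1 lies at chr8:106603351-106670246, Ctnnb1 at chr9:120929216-120960507, Ctnnd1 at chr2:84600071-84650765, Jup at chr11:100368958-100397763, Ncam1 at chr9:49502136-49798925, Epcam at chr17:87635979-87651129 and Tjp1 at chr7:65296165-65527781. The first RefSeq starts of Ctnnd1 and Ctnnb1, whose promoters are printed, differ from these ends. Some exons overlap those of other genes, and the preparation does not mark the strand, so reads there cannot be assigned to one gene. Exons of Ctnnb1 share 759 bases with Ulk4, which averaged 3.34 FPKM, those of Ctnna1 share 95 bases with Lrrtm2, and those of Ncam1 share 417 bases with the antisense gene Gm11149. Ctnnd1 shares 4482 exonic bases on its own strand with Gm28635.

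Beyond the 9 members, 224 adhesion genes were listed in 18 groups by role, and 146 of them were tested. On the high-fat diet, 12 of the 146 were called between genotypes (8.22%, against 10.7% of all tested genes), 4 higher and 8 lower in deleted islets. Higher were Cdh8, the tight junction gene Cldn6 (0.52, limma adjusted p = 0.00464), the NCAM partner Fgfr1 (0.33, adjusted p = 0.0312) and the polarity scaffold Inadl (0.42, adjusted p = 0.0386). Among the lower genes were the junction and immunoglobulin adhesion genes Jam2 (-0.93, adjusted p = 8.61e-06), Mcam (-0.83, adjusted p = 3.83e-04), Esam (-0.56, adjusted p = 7.10e-04) and Pecam1 (-0.47, adjusted p = 0.00694), with Cdh5, the connexin gene Gja1 (-0.59, adjusted p = 0.00741) and Fhl2 (-0.45, adjusted p = 0.0276). Pecam1, Esam and Cdh5 are also markers of endothelial cells. Of the 6 libraries compared, leaving out any but deleted replicate 3 ended the call of Fgfr1, any but deleted replicate 2 that of Inadl, and any but deleted or floxed replicate 3 that of Fhl2. The call of Gja1 ended without floxed replicate 3 (adjusted p = 0.0536).

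On chow there was little. At 8 weeks 3 of the 146 were called between genotypes (0.548% of all tested genes were): Tspan8 was higher in deleted islets (0.81, limma adjusted p = 0.0337), and Axin1 (-0.82, adjusted p = 0.0365) and Cldn6 (-0.50, adjusted p = 0.0459) were lower. The calls of Tspan8 and Cldn6 ended when any one of the 6 libraries compared was left out, and that of Axin1 when any but deleted replicate 3 was. At 14 weeks on chow 0 of 146 were called by limma, where 0.114% of all tested genes were. At an unadjusted limma p below 0.05 there were 21 of the 146 and 976 of all 12234 tested genes. Cldn6, which was lower at 8 weeks and higher on the diet, had a called interaction of genotype with diet at 14 weeks (0.76, limma adjusted p = 0.00900). Cldn6 and Cdh8 were the 2 genes of the 146 called for it (1.37%, against 3.53% of all tested genes).

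On the high-fat diet against chow, 33 of 146 were called in deleted islets (22.6%, where 15.0% of all tested genes were), 14 higher and 19 lower. In floxed islets 46 of 146 were called (31.5%, where 28.5% of all tested genes were), 10 higher and 36 lower. The directions in floxed islets were less even than over all 12234 tested genes, of which 1834 were called higher and 1652 (13.5%) lower there. In deleted islets 1107 of all tested genes (9.05%) were called higher and 723 lower. The gap junction gene Gjd2, which encodes the connexin that couples beta cells, was higher on the diet in deleted islets (1.35, limma adjusted p = 9.93e-04) and in floxed islets (1.71, adjusted p = 6.25e-05). The tight junction gene Cldn4 was lower on the diet in deleted islets (-0.69, adjusted p = 4.12e-04) and in floxed islets (-1.15, adjusted p = 8.61e-07). The actin regulator Vasp was lower on the diet in deleted islets (-0.44, adjusted p = 0.00968) and in floxed islets (-0.92, adjusted p = 7.85e-06). In deleted islets its call ended without chow replicate 2 (-0.35, adjusted p = 0.0540) or high-fat diet replicate 2 (-0.39, adjusted p = 0.0541). The immunoglobulin adhesion gene Cadm1 was likewise lower in deleted islets (-0.38, adjusted p = 0.0277) and in floxed islets (-0.77, adjusted p = 5.66e-05). Snai1, a repressor of Cdh1 transcription, was at -0.29 in deleted islets (adjusted p = 0.211) and was lower on the diet in floxed islets (-0.66, adjusted p = 0.00258). Adipor2, an adiponectin receptor gene, was at 0.28 in deleted islets (adjusted p = 0.146) and was higher on the diet in floxed islets (0.64, adjusted p = 8.24e-04). The diet differences of Vasp, Cadm1, Snai1 and Adipor2 were not called as differing between the genotypes (adjusted p for the interaction from 0.104 for Vasp to 0.389 for Snai1).

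**Figure D5:**
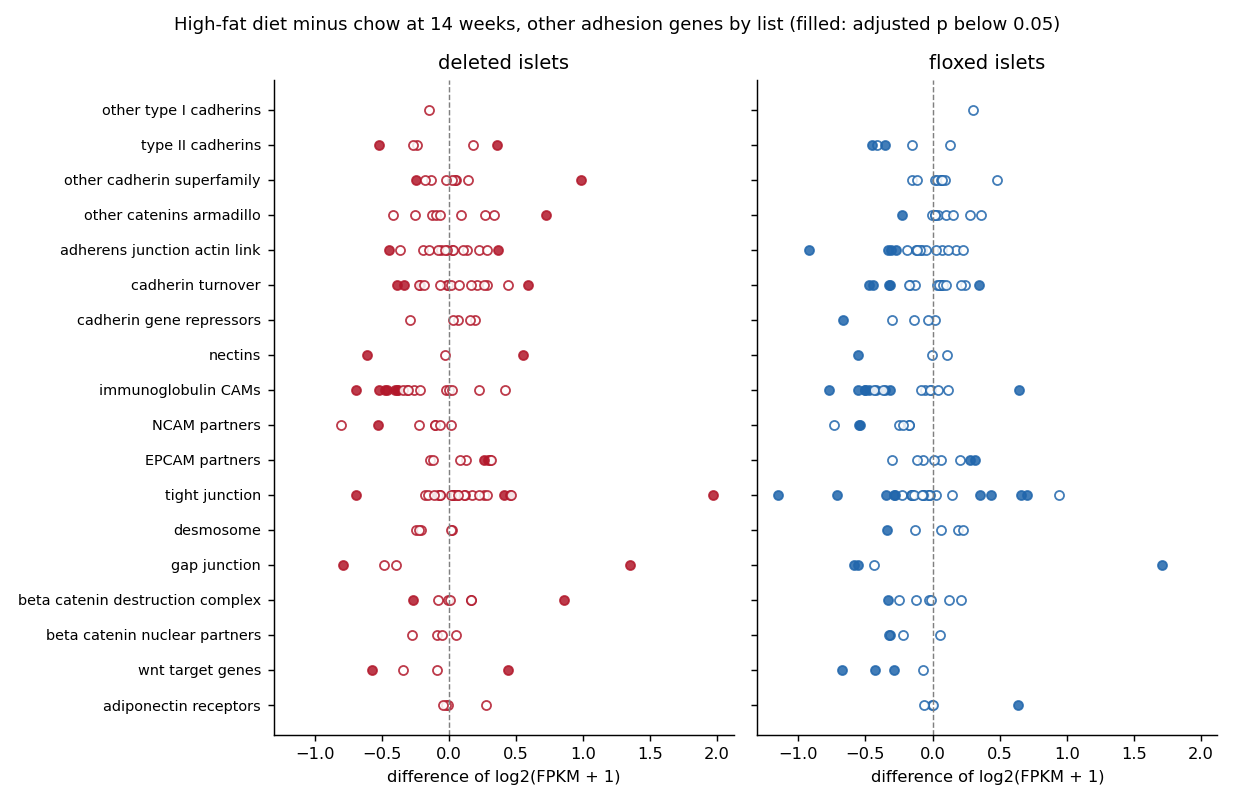
Difference of log2(FPKM + 1), high-fat diet minus chow at 14 weeks, of the 146 other adhesion genes by list, in deleted (red, left) and floxed (blue, right) islets; each point is 1 gene, and filled points passed an adjusted p of 0.05. Called genes numbered 14 higher and 19 lower in deleted islets, where 15.0% of all tested genes were called, and 10 higher and 36 lower in floxed islets, where 28.5% were. Over all tested genes, 1107 were called higher and 723 lower in deleted islets, and 1834 higher and 1652 lower in floxed islets.

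Markers of several cell types were called between genotypes on the high-fat diet, where 10.7% of all tested genes were called. On the high-fat diet, 6 of 11 tested endothelial markers were lower in deleted islets and 0 higher, and the 13 listed markers summed to 146.5 to 156.7 FPKM in deleted islets, against 176.6 to 226.3 FPKM in floxed islets. Of 7 tested alpha cell markers, 4 were higher and 1 lower in deleted islets, and the 8 listed summed to 36249 to 46691 FPKM in deleted islets, against 23546 to 28439 FPKM in floxed islets. Of 5 tested delta and PP cell markers 3 were higher, and of 10 beta cell markers 3 were higher. Delta and PP sums overlapped between the genotypes, at 21488 to 31690 FPKM in deleted islets, against 17464.5 to 25270 FPKM in floxed islets. Beta cell sums overlapped too, at 803445 to 854554 FPKM in deleted islets, against 830572 to 864620 FPKM in floxed islets. Of 8 tested mesenchymal markers 1 was called, lower in deleted islets, which is near the share of all tested genes. Mesenchymal markers summed to 9.02 to 12.2 FPKM in deleted islets, against 12.8 to 30.8 FPKM in floxed islets, with Pdgfra and Thy1 below 0.1 FPKM in each of these libraries. The part of these shifts in the differences of Cdh2, Ctnna1, Epcam and Cdh8 was not tested. Marker sums also differed on chow at 8 weeks. Delta and PP cell markers summed to 44321 to 58064 FPKM in deleted islets, against 13234.5 to 19168.5 FPKM in floxed islets. Of the 5 tested, only Pyy was called, higher in deleted islets. The median log2 difference of the list was -0.01, so the sum does not speak for the whole list. Of all tested genes, 0.548% were called in this comparison. Alpha cell markers summed to 15869 to 23919 FPKM in deleted islets, against 28966 to 33343 FPKM in floxed islets. Of the 7 tested, 2 were called lower and 0 higher, and the median log2 difference was -0.53. The part of these shifts in the 8-week differences of the members was not tested.

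Markers of several cell types were called for the diet, where 15.0% of all tested genes were called in deleted and 28.5% in floxed islets. Counts near or below these shares, as for duct and macrophage markers in deleted and Schwann or neural markers in floxed islets, do not set those lists apart. In deleted islets, called markers were 9 of 10 for beta cells, 3 of 7 for alpha cells and 2 of 5 for delta and PP cells, all higher on the diet. Lower there were 6 of 8 mesenchymal, 4 of 11 endothelial, 2 of 9 macrophage and 1 of 7 duct markers. In floxed islets 4 of 10 beta cell markers were higher and 1 lower, and 1 of 7 alpha cell markers was higher and 2 lower. Lower there were 3 of 5 delta and PP, 4 of 7 duct, 5 of 11 endothelial, 3 of 8 mesenchymal and 1 of 5 Schwann or neural markers. Endothelial markers summed to 146.5 to 156.7 FPKM on the high-fat diet, against 165.9 to 188.9 FPKM on chow, in deleted islets, and to 176.6 to 226.3 FPKM on the high-fat diet, against 220.8 to 230.1 FPKM on chow, in floxed islets. The part of these shifts in the diet differences of Epcam, Cdh2, Ctnna1, Ctnnd1 and Ncam1 was not tested.

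Among exocrine cells, the 16 acinar markers summed to 112.7 to 243.5 FPKM on the high-fat diet, against 1744 to 3190 FPKM on chow, in deleted islets, and 11 of 14 tested were lower. In floxed islets they summed to 26.5 to 342.0 FPKM on the high-fat diet, against 1191 to 5718 FPKM on chow, and 14 of 14 tested were lower, as were 8 of 9 tested macrophage markers. The acinar sums of diet and chow libraries did not overlap in either genotype. A fit with the acinar markers as a covariate therefore cannot tell acinar content and diet apart, and it is given as an alternative setting only. With this covariate, Ctnna1 and Ctnnd1 kept their calls for the diet in floxed islets, while Cdh2 was at -0.19 (limma adjusted p = 0.204) and Ncam1 at -0.29 (adjusted p = 0.110). Epcam in deleted islets lost its call with this covariate, though its diet difference was larger, at 0.31 (limma adjusted p = 0.0526) in place of 0.20.

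Over the 18 libraries, which can differ in depth and cell make-up, the levels of some members ran together, given here as descriptions. Pearson's r of log2(FPKM + 1) was 0.89 for Ctnna1 with Ctnnd1, 0.87 for Ctnna1 with Ncam1, 0.80 for Cdh2 with Ctnna1 and 0.71 for Cdh1 with Tjp1, while it was -0.43 for Jup with Epcam. Among all tested genes, those most alike to Epcam were Pax6 (r = 0.962), an islet transcription factor gene, and Gch1 (r = 0.947). Most alike to Cdh1 were Nrip1 (r = 0.933) and Abca3 (r = 0.918), to Cdh2 Hspa12a (r = 0.882), to Ctnna1 Snrnp200 (r = 0.929), to Ncam1 Mfn2 (r = 0.940) and to Ctnnb1 Rnf114 (r = 0.871).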

How the data were processed

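RNA of 18 islet libraries in 6 groups of 3 was analysed. The authors deposited gene-level FPKM, a unit taken from the tools and the values, since neither labels nor file headers name it. Per the submitters' processing notes, the tools were Cufflinks 2.2.1, TopHat2 2.0.13, SAMtools 0.1.19 and Bowtie2 2.2.3, and the build was mm10. The sources used here do not give their roles. Per the labels' protocols, cDNA was made with a SMART-Seq HT kit and libraries with a Nextera kit. The libraries' median ratios to their geometric mean were 1.00 to 1.01, so the deposited values appear already scaled between libraries.

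Genes reaching 1 FPKM in 3 or more libraries were kept, and log2(FPKM + 1) was fitted with limma 3.58.1 (statmod 1.5.0, R 4.3.3), using 1 mean per group and trended, robust moderation. Benjamini-Hochberg adjustment ran over all 12234 genes, and calls were made at 0.05. The fit was tested on simulated data. Absolute depth is unknown, and the relative value of 1 fragment spanned 1.39 times between libraries. Other steps used python 3.11.15, pandas 2.3.3, numpy 2.4.6, scipy 1.17.1 and matplotlib 3.10.9.

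The members, lists and tests were chosen with earlier results of these data known. Named were the 9 members and Cdh13, and from each other list up to 4 called genes with the smallest p in a comparison or the 2 with the highest mean FPKM; values of Cdh5 and of other cadherins beside Cdh8 follow that rule. A few genes named by it are not reported here. Marker sums use 1 list per cell type. Alternatives were a pseudocount of 0.1, quantile normalization, median-ratio scaling, no filter, a mean of 5 FPKM or more, only the groups compared, the replicate block, an acinar covariate, sample quality weights and each library left out. The alternatives for other adhesion genes were added after their calls were seen.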

Additional observations from a re-analysis of the deposited data

How the results depend on the processing

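The counts of called members were recomputed under 27 alternative settings. No called value changed direction; of 2690 recomputed values, 109 that were not called in either setting changed sign. The call between genotypes over the 3 conditions, 0 members, became 1 with a mean of at least 5 FPKM, with median-ratio scaling and with quantile normalization, and 2 with sample quality weights. The diet count in deleted islets, 1 member, became 0 with no filter, quantile normalization or the acinar covariate. The diet count in floxed islets, 4 members, became 2 with the acinar covariate. The count for 14 against 8 weeks in deleted islets, 0, became 1 with a mean of at least 5 FPKM and 2 with quality weights, and the interaction with diet, 0, became 1 with quality weights. With each library left out in turn the counts ranged from 1 to 4 between genotypes on the high-fat diet, from 0 to 1 over the 3 conditions, from 0 to 1 for diet in deleted islets, from 2 to 4 for diet in floxed islets and from 0 to 1 for age in deleted islets, and stayed at 0 in the other 5 comparisons. The cause was not tested.

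The deviations of same-numbered libraries of different groups correlated at -0.16 to 0.23 over 45 pairs (median 0.04), and 8 of 45 were over 0.1. For libraries with different numbers they correlated at -0.23 to 0.22 over 90 pairs (median -0.02), and 7 of 90 were over 0.1. Whether the replicate numbers pair the libraries was not tested. With the replicate block, 3 members were called between genotypes on the high-fat diet and no member count changed. Of 2839 recomputed values of other adhesion genes, 334 lost their call and 0 reversed.

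Over all genes, 67 calls between genotypes at 8 weeks became 25 with no filter, 44 with only the groups compared and 406 with quality weights. At 14 weeks on chow 14 became 25 with a mean of at least 5 FPKM, 27 with quantile normalization, 2 with only the groups compared and 114 with quality weights. Over the 3 conditions 442 became 906 with quality weights, and the interaction with diet 432 became 778. The diet count in deleted islets, 1830, became 784 with the acinar covariate and 2834 with quality weights, and in floxed islets 3486 became 1791 with the covariate. For age, 356 in deleted islets became 85 with only the groups compared, 221 with the covariate and 1032 with quality weights, and 508 in floxed islets became 963 with quality weights. The interaction with age, 24, became 3 with no filter, 14 with only the groups compared, 44 with the covariate and 182 with quality weights. With each library left out in turn, these totals ranged from 16 to 168 at 8 weeks, 3 to 30 at 14 weeks on chow and 820 to 1568 on the high-fat diet between genotypes, and 298 to 479 over the 3 conditions. They ranged from 1159 to 2082 and 2585 to 3680 for diet in deleted and floxed islets, 149 to 399 and 232 to 636 for age in deleted and floxed islets, and 257 to 519 and 4 to 41 for the interactions with diet and age. The background shares printed beside the member counts move with them. With 3 libraries a group and unknown depth, members that were not called could still differ by as much as the ends of their intervals.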
